A study of Petunia x hybrida with 22 samples.

Results

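The 170 regions described here are places in the genome of the petunia corolla where 2 histone methylation marks, H3K4me3 and H3K36me3, were both lower in the evening than in the morning and no acetylation change was listed. An island, an interval that the authors' peak calling listed as changed, counted as falling if its CPM value (reads scaled to a library of 1000000 reads) was lower at 7PM than at 7AM. Overlapping falling islands of the 2 replicates of a mark were merged into regions, and regions with both replicates were kept. A member is such an H3K4me3 region that overlaps such an H3K36me3 region by 1 bp or more and overlaps no island of any H3K9ac or H3K27ac list, whether lower or higher. Of 1658 falling H3K4me3 regions, 509 overlapped a falling H3K36me3 region, and 170 of these (33.4%) met no acetylation island. Of those that overlapped no falling H3K36me3 region, 448 met no acetylation island and 701 met one. A lack of listed acetylation was thus not particular to regions where both methylation marks fell. The 16 lists hold 125384 islands in all. "Unlisted" acetylation means only that no changed island was listed there: whether acetylated histones were present, absent or steady at these places was not analysed here.

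H3K4me3 is deposited around the start of transcribed genes by methyltransferases that travel with initiating RNA polymerase II. H3K36me3 is added over the body of genes by enzymes bound to elongating polymerase, and in plants it often begins near the start of the gene and lies against or over H3K4me3. Histone acetylation at lysines 9 and 27 is added and removed faster, and typically marks the same promoters when they are active. In petunia the corolla is the source of floral scent, which cultivar Mitchell releases mainly at night, and many genes of this tissue follow the day.

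Chromatin of Petunia x hybrida cultivar Mitchell corollas, crosslinked with 1% formaldehyde, was immunoprecipitated at 7AM and at 7PM, in a greenhouse with light for 14 h from 6AM and dark for 10 h from 8PM. The groups compared, 7AM and 7PM, thus differ in clock time and in hours since lights on, and share the cultivar, tissue and light regime. H3K4me3 had replicates 1 and 2 at each time and H3K36me3 had replicates 1 and 3. The library totals were 27700344 to 51116862 reads for H3K4me3 and 26643442 to 43918569 for H3K36me3, while those of the acetylation marks were lower, 6721831 to 15757663. The labels do not say whether libraries of different marks with the same replicate number came from the same chromatin. The positions are those of the authors' lists, counted from 1, on scaffolds whose names begin with Peaxi162, and the genome build is not given in the sources used here. No gene annotation was used here, so no region could be placed in a gene, exon or intron.

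The regions were chosen by the 7AM and 7PM CPM values of both marks in all replicates, so the falls are given as a description. In H3K4me3 replicate 1 the median level over the 170 regions was 4.45 CPM per kb (CPM divided by the length of the islands) at 7AM and 1.99 at 7PM. The second H3K4me3 replicate was lower at both times: its morning median was 2.98 and the evening median 1.1. For H3K36me3, replicate 1 had 2.85 and 1.17 and replicate 3 had 2.40 and 0.800. Both replicates of both marks thus had a lower median in the evening, while the replicates of a time differed from each other as well. Levels ranged from 1.31 to 10.6 CPM per kb among regions in H3K4me3 replicate 1 at 7AM and from 1.04 to 3.93 in H3K36me3 replicate 3 at 7AM. The counts behind single values were 29 to 1644 reads in the first of these libraries and 21 to 1249 in the second, and went down to 3 reads in H3K4me3 replicate 2 at 7PM. In bulk tissue, a mark lowered in every cell and a mark lost from a part of the cells cannot be told apart.

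**Figure D1:**
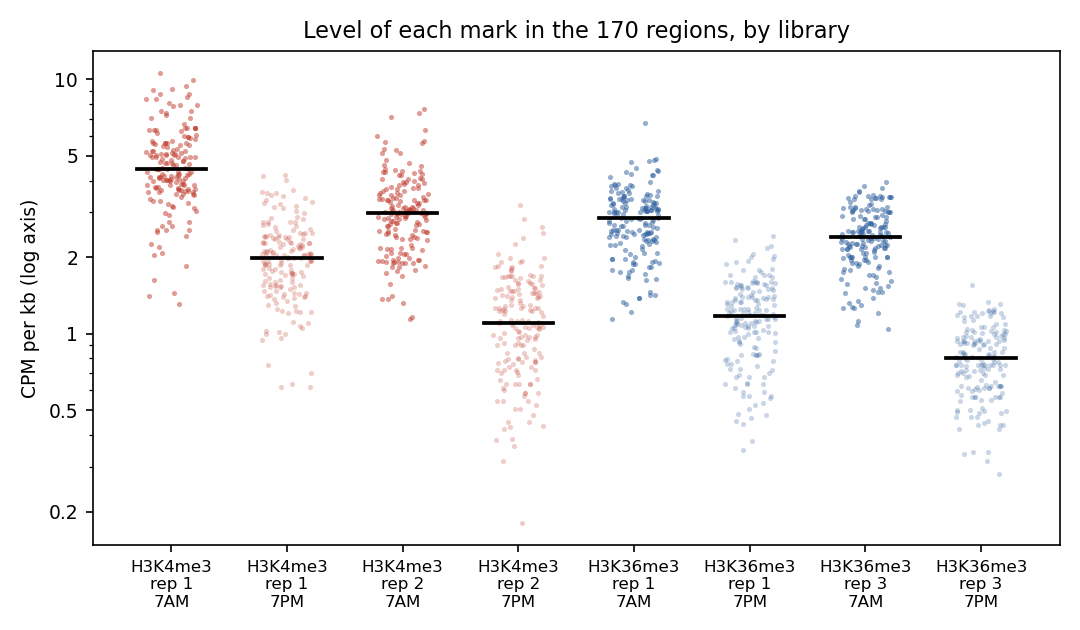
Level of H3K4me3 (red) and H3K36me3 (blue) in the 170 regions, in CPM per kb on a log axis, with a column of points per library, a point per region and a black bar at the median. The medians went from 4.45 to 1.99 in H3K4me3 replicate 1 and from 2.40 to 0.800 in H3K36me3 replicate 3.

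The median log2 fold (7PM over 7AM, each count plus 1 read divided by its library total) was −1.17 and −1.39 for the H3K4me3 replicates 1 and 2, and −1.21 and −1.51 for the H3K36me3 replicates 1 and 3. These folds are relative to library totals: scaling by the listed regions of each mark (TMM), most of which were lower, brought the median over replicates to −0.035 for H3K4me3 and −0.11 for H3K36me3. Averaged over the 2 replicates of a mark, folds ran from −2.13 to −1.03 with a median of −1.30 for H3K4me3, and from −2.27 to −1.04 with a median of −1.40 for H3K36me3. The SD between the 2 replicates had a median over regions of 0.15 for H3K4me3 and 0.23 for H3K36me3. No region reached 4-fold in all 4 pairs of libraries, and the fold of the weakest pair of a region lay between 1.00 and 1.57 on the log2 scale, just past the authors' 2-fold limit at its lower end. In the authors' deposited lists the median fold of the islands in these regions was 2.26 and 2.63 for the H3K4me3 replicates and 2.31 and 2.85 for the H3K36me3 replicates. In 165 regions both 7PM libraries of H3K4me3 were below both 7AM libraries in CPM per kb, and in 169 this held for H3K36me3. Over all regions listed in both replicates in either direction, the same was found in 85.6% of 1867 for H3K4me3 and 93.9% of 2567 for H3K36me3, and 88.8% and 94.2% were lower in both replicates. Since the rule used this contrast, nothing is read from these shares.

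Among the 130 members with at least 50 reads at 7AM in each pair, the region whose weakest fold was the largest lies on Peaxi162Scf00011 from 397801 to 398600. For H3K4me3, replicate 1 had 110 morning and 55 evening reads (4.01 and 1.34 CPM per kb), and replicate 2 had 70 and 14 (2.90 and 0.632). For H3K36me3, replicate 1 had 73 and 20 reads (2.08 and 0.633 CPM per kb), and replicate 3 had 60 and 9 (2.31 and 0.422). Evening values were below morning values in every library, without overlap. The log2 fold was −1.84 ± 0.39 for H3K4me3 and −1.99 ± 0.47 for H3K36me3 (SD, n = 2 replicate pairs). All 4 islands began and ended at the same positions, so the counts of both marks cover the same 800 bp.

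The region on Peaxi162Scf00635 from 788201 to 788800 also had the same 600 bp in all 4 lists, and it was among the 3 highest of those 130 in morning H3K4me3. Replicate 1 of H3K4me3 had 9.42 CPM per kb in the morning and 3.49 in the evening, and replicate 2 had 5.63 and 1.93. For H3K36me3, replicate 1 had 4.74 and 1.52, and replicate 3 had 3.60 and 1.06. The replicates were close in fold, with −1.47 ± 0.064 for H3K4me3 and −1.66 ± 0.058 for H3K36me3. On Peaxi162Scf00207, from 367401 to 369800, the fall was larger for H3K36me3 (−2.01 ± 0.22; 316 to 78 reads and 195 to 35 reads) than for H3K4me3 (−1.43 ± 0.047; 306 to 173 reads and 155 to 51 reads). The H3K36me3 ratio of 7AM to 7PM there was 3.64 in replicate 1 (95% exact counting interval 2.83 to 4.73) and 4.58 in replicate 3 (3.18 to 6.76). The H3K4me3 ratio was 2.63 (2.18 to 3.19) and 2.79 (2.02 to 3.90). The intervals reflect counting error alone, and PCR copies of a molecule may count more than once. The other regions named for their folds were on Peaxi162Scf00461 from 493001 to 495400 (H3K4me3 −1.68 ± 0.41, H3K36me3 −1.66 ± 0.0071) and on Peaxi162Scf00721 from 506801 to 507800 (H3K4me3 −1.42 ± 0.11, H3K36me3 −1.81 ± 0.63).

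The borders of the marks were compared next. The rule used them for the shared 1 bp and to keep the H3K4me3 region clear of acetylation islands. H3K36me3 regions could reach such islands, so the rule limited the extent of H3K4me3 alone. How much this shaped the differences between the marks was not tested. All islands lie on a grid of 200 bp, so 200 bp is the smallest step between ends. H3K4me3 regions had a median length of 1800 bp (400 to 8600) and covered 348.2 kb in all, and the H3K36me3 regions over them had a median of 2000 bp (400 to 16600) and covered 419 kb. Each member met exactly 1 falling H3K36me3 region, and no H3K36me3 region served 2 members. The overlap had a median of 1700 bp. It took in the whole H3K4me3 region in 101 members and the whole H3K36me3 region in 86, and it was under 50% of the H3K4me3 region in 3. The smallest overlap was 400 bp, in 7 members, among them Peaxi162Scf00049 from 563601 to 564000, where both marks had these same borders, and Peaxi162Scf00050 from 2258401 to 2259000, where H3K36me3 ran from 2258201 to 2258800.

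The ends of the 2 marks coincided often. Of the 340 ends of the merged regions, 164 (48.2%) were on the same 200 bp border for both marks, 72.1% were 200 bp apart or less and 10.3% were 1000 bp apart or more. In 43 members both ends coincided. Taken by library pair, H3K4me3 replicate 1 and H3K36me3 replicate 1 had 52.6% of ends in common, and H3K4me3 replicate 2 and H3K36me3 replicate 3 had 42.9%. The 2 other combinations gave 45.0% and 52.1%. For comparison, within a mark 57.4% of ends coincided between the H3K4me3 replicates and 59.4% between the H3K36me3 replicates. The shared part of the joint span had a median of 0.86 and 0.76 between marks in the first 2 pairs, against 0.88 and 0.89 between the replicates of H3K4me3 and of H3K36me3. Both kinds of pair differ by ends far apart as well: 8.82% and 12.6% of ends were 1000 bp apart or more between marks, and 4.41% and 7.06% between replicates of a mark. The same-mark replicates had been merged because they overlapped, as had the marks, so the rule favours overlap in both. No test was made of these shares, because the ends of a region are not replicates.

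**Figure D2:**
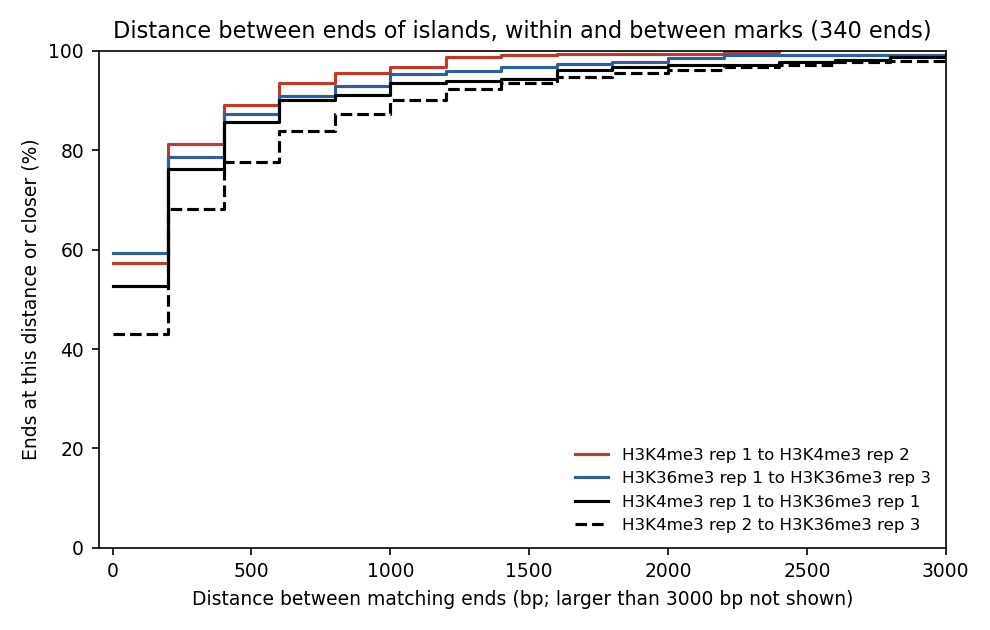
Cumulative share of the 340 ends, in percent, against the distance between matching ends in bp, for islands of the same mark in 2 replicates (coloured lines) and for islands of the 2 marks (black lines). At a distance of 0 the lines start at 57.4% and 59.4% within marks and at 52.6% and 42.9% between marks.

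In 15 members all 4 islands, both marks and both replicates of each, had identical borders. These were short, with a median of 600 bp and a range of 400 to 3800 bp. Because the counts of both marks cover the same bases in them, their folds can be set side by side directly: the median log2 fold was −1.41 for H3K4me3 (−2.13 to −1.20) and −1.52 for H3K36me3 (−2.06 to −1.24), and H3K36me3 had the lower value in 10 of 15. By the mean fold, H3K36me3 was also the lower in 16 of the 27 members where it passed H3K4me3 by 1000 bp or more. It was the lower in 98 of the other 143, which include these 15. The H3K4me3 value of −2.13, on Peaxi162Scf00074, rests on 33 morning and 3 evening reads in replicate 2 (SD 1.18). Counting the 15 with identical borders, the lower-coordinate end was the same in all 4 lists in 52 members and the higher-coordinate end in 46.

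H3K36me3 was the longer mark more often than H3K4me3, but this depended on the library pair. Over the merged regions H3K36me3 was longer in 74 members (43.5%), H3K4me3 in 46 (27.1%), and 50 were equal. Between H3K4me3 replicate 1 and H3K36me3 replicate 1 the counts were nearly even, with 63 against 54 and 53 equal. Between H3K4me3 replicate 2 and H3K36me3 replicate 3 they were 93 against 46 and 31 equal. The same mark was longer in both pairs in 46 members for H3K36me3 and in 24 for H3K4me3, and the longer mark differed between the pairs in 33. With a single replicate of one mark set against the merged regions of the other, both the spans and the set of members change. With H3K36me3 replicate 1 alone (217 members), H3K36me3 was the longer in 24.0% and H3K4me3 in 47.5%, and with H3K36me3 replicate 3 alone (313 members) the shares were 38.0% and 34.2%. With H3K4me3 replicate 2 alone (429 members), H3K36me3 was the longer in 73.2% and H3K4me3 in 9.79%, and with H3K4me3 replicate 1 alone (404 members) the shares were 49.0% and 18.8%. H3K36me3 was thus the longer mark more often in all of these but the set with H3K36me3 replicate 1 alone. How much of each shift came from the spans and how much from the members was not tested.

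Long extensions belonged mainly to H3K36me3 in both pairs. H3K36me3 passed the H3K4me3 border by 1000 bp or more at 29 ends, and H3K4me3 passed the H3K36me3 border by as much at 6. The counts were 23 against 7 between the replicates numbered 1, and 34 against 9 between H3K4me3 replicate 2 and H3K36me3 replicate 3. At 14 ends the H3K36me3 extension was that long in both pairs, and at 2 the H3K4me3 extension was. Counting offsets of any length, long ones included, H3K36me3 was beyond at 98 ends of the merged regions and H3K4me3 at 78. Between the replicates numbered 1 these counts were 78 against 83, with H3K4me3 beyond more often. Between H3K4me3 replicate 2 and H3K36me3 replicate 3 they were 117 against 77. In the merged regions the median overhang was 400 bp for H3K36me3 and 200 bp for H3K4me3, and the largest were 9600 and 2800 bp. The lower- and higher-coordinate ends gave similar counts, 50 and 48 for H3K36me3 and 37 and 41 for H3K4me3. Since the strand of transcription was not used here, these ends cannot be called upstream or downstream.

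**Figure D3:**
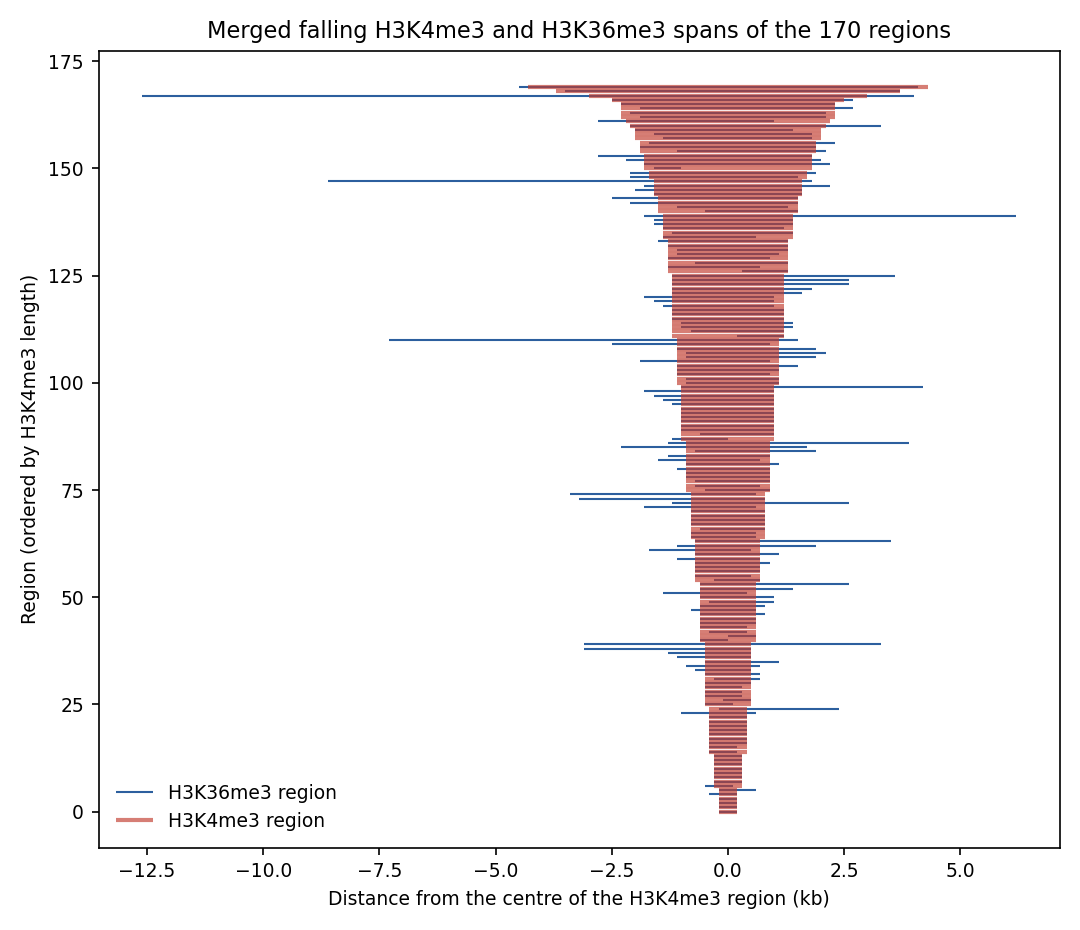
Merged H3K4me3 (red) and H3K36me3 (blue) spans of the 170 regions, a row per region in order of H3K4me3 length, by distance in kb from the centre of the H3K4me3 region. The spans end 200 bp apart or less at 72.1% of ends, and the blue lines that pass the red ones by 1000 bp or more at 29 ends stick out mostly on a single side.

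The long H3K36me3 extensions, at 29 of the 340 ends, were mostly one-sided. This was not particular to the members. Of the 339 regions where both marks fell and acetylation was listed, 56 had such an extension, 2 of them at both ends. Whether this differs from what so few long ends would give was not tested. In the members, the long extensions occurred in 27, in 25 of them at a single end, of which 11 were at the lower and 14 at the higher coordinate. At the opposite end of these 25, the marks coincided in 11 and were 200 bp apart or less in 19. Over all 340 ends the shares were 48.2% and 72.1%, so these opposite ends were much like ends in general. H3K4me3 regions with such an extension had the same median length as the other 143, 1800 bp. Their median log2 folds were −1.24 for H3K4me3 and −1.34 for H3K36me3, against −1.31 and −1.40 in the others, and the median morning level of H3K4me3 was 3.09 CPM per kb against 3.80. These values were not tested, because the split came from the regions themselves.

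On Peaxi162Scf00922, H3K4me3 lay at 107601 to 110400 and H3K36me3 at 107201 to 115200, so that H3K36me3 went 4800 bp further at the higher end. The extension was present in both lists, to 115200 in replicate 1 and, as 2 islands with a gap, to 115000 in replicate 3. Morning and evening reads of H3K36me3 were 809 and 314 for replicate 1, and 525 and 155 for replicate 3 (log2 fold −1.34 ± 0.18). Those of H3K4me3 were 373 and 270 for replicate 1, and 173 and 68 for replicate 2 (−1.12 ± 0.12; SD, n = 2 replicate pairs). All evening levels were below all morning levels for both marks. On Peaxi162Scf00045, both marks began at 24001, and H3K4me3 ended at 26000 while H3K36me3 went on to 29200 in both replicates. Morning and evening reads of H3K36me3 were 700 and 311 for replicate 1, and 404 and 103 for replicate 3 (−1.35 ± 0.47). Those of H3K4me3 were 278 and 191, then 158 and 70 (−1.08 ± 0.053).

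The 3 longest extensions were at the lower-coordinate end and rested on H3K36me3 replicate 3. On Peaxi162Scf00359 the H3K4me3 region ran from 280201 to 286200, and the H3K36me3 island began at 270601 in replicate 3 but at 280401 in replicate 1. On Peaxi162Scf00341, with H3K4me3 from 671401 to 674600, it began at 664401 in replicate 3 and at 671401 in replicate 1. On Peaxi162Scf00013, with H3K4me3 from 1218201 to 1220400, it began at 1212001 in replicate 3, where 2 islands with a gap make up the span, and at 1217201 in replicate 1. The merged extensions of 9600, 7000 and 6200 bp are therefore those of a single replicate, and in replicate 1 the extension beyond the merged H3K4me3 region was absent at the first 2. The merged H3K36me3 regions at these first 2 also met a listed acetylation island outside the H3K4me3 region, while that on Peaxi162Scf00013 met none. The log2 fold of H3K36me3 at these places was −1.04 ± 0.062, −1.16 ± 0.22 and −1.10 ± 0.11, near the limit of the lists.

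**Figure D4:**
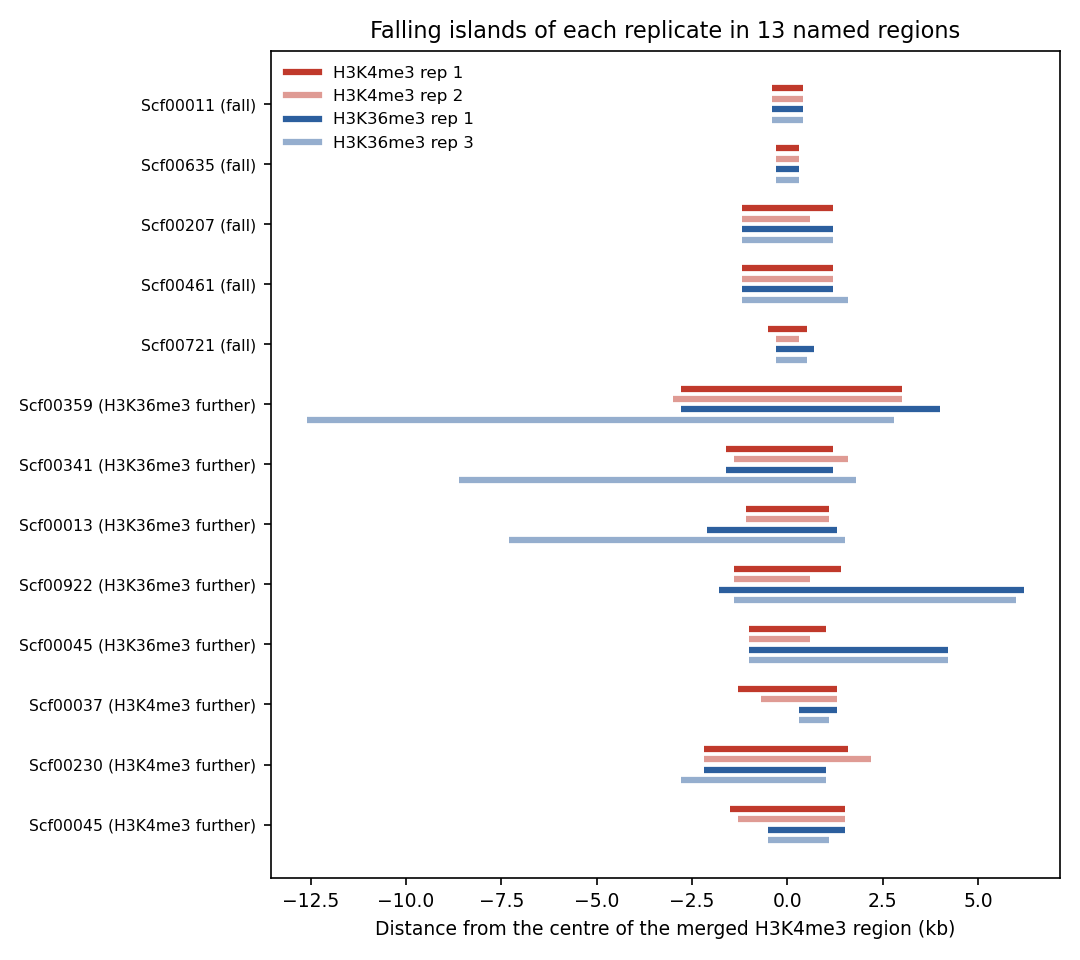
Spans of the falling islands of each list in 13 named regions, by distance in kb from the centre of the merged H3K4me3 region; dark and light red are H3K4me3 replicates 1 and 2, dark and light blue H3K36me3 replicates 1 and 3. The islands of Scf00011 and Scf00635 coincide, both blue lines pass the red ones on Scf00922, and at the lower-coordinate side of Scf00359 the light blue line does so alone. Lines join the first to the last island of a list, also over a gap on Scf00013 and on Scf00922.

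H3K4me3 passed H3K36me3 on Peaxi162Scf00037, where it ran from 1019001 to 1021600 and H3K36me3 from 1020601 to the same end. H3K4me3 began at 1019001 in replicate 1 and at 1019601 in replicate 2, and H3K36me3 at 1020601 in both of its replicates. H3K4me3 had 397 morning and 213 evening reads in its replicate 1, and 204 and 89 in its replicate 2 (−1.27 ± 0.29). H3K36me3 had 83 and 36, then 54 and 13, in its own replicates (−1.36 ± 0.47). A second such place was on the scaffold named above for an H3K36me3 extension, Peaxi162Scf00045, from 689801 to 692800, with H3K36me3 from 690801. On this scaffold, then, each mark was the further one at a different member. On Peaxi162Scf00230, the marks were shifted: H3K4me3 ran from 663801 to 668200 and H3K36me3 from 663201 to 667000. Shifted spans, in which each mark passed the other at an opposite end, made up 26 members, against 58 in which H3K36me3 held H3K4me3 within it, 43 the other way round and 43 identical.

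The longest H3K4me3 member, on Peaxi162Scf00953 from 361801 to 370400, was matched by H3K36me3 from 361601 to 370200. Replicate 1 of H3K4me3 had 1644 morning and 871 evening reads, and replicate 2 had 880 and 256 (−1.57 ± 0.11). For H3K36me3, replicate 1 had 1355 and 564, and replicate 3 had 848 and 279 (−1.21 ± 0.15). The next longest, on Peaxi162Scf00201 from 343201 to 350600, was likewise matched by H3K36me3 from 343401 to 350600 (H3K4me3 −1.13 ± 0.13, H3K36me3 −1.40 ± 0.48). The merged spans of both marks thus ended within 200 bp of each other in these 2 long regions. Single lists differed more: H3K4me3 replicate 2 and H3K36me3 replicate 3 began at 363001 and 361601 on Peaxi162Scf00953, and at 343201 and 344401 on Peaxi162Scf00201. After these in length came the region on Peaxi162Scf00359 from 280201 to 286200, which merged H3K36me3 passed by 9600 bp at the lower-coordinate end. Among members with at least 50 reads at 7AM in each pair, the highest morning H3K4me3 by the mean of both replicates was on Peaxi162Scf00164 from 1339601 to 1342200. Replicate 1 had 8.72 CPM per kb in the morning and 3.56 in the evening there, and replicate 2 had 7.36 and 3.21. The region on Peaxi162Scf00708 from 34801 to 38400 had 9.97 and 4.22, then 5.12 and 1.91, in the same order.

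The sizes of the falls of the marks were compared within library pairs. H3K36me3 had the larger fall in 96 of 170 members between the replicates numbered 1 and in 107 between H3K4me3 replicate 2 and H3K36me3 replicate 3. It was the larger in both pairs in 55 members and H3K4me3 in 22, and in 93 the order differed between pairs, so for most regions the replicates do not order the marks. The replicates of a mark also differed: the H3K4me3 fall was larger in replicate 2 than in replicate 1 in 122 members, and the H3K36me3 fall was larger in replicate 3 than in replicate 1 in 136. Across the 170 members the rank correlation of folds was 0.16 between the H3K4me3 replicates, 0.062 between the H3K36me3 replicates, and 0.22 and 0.16 between marks in the 2 pairs. Morning levels were more alike, with rho = 0.73 between the H3K4me3 replicates, 0.69 between the H3K36me3 replicates, and 0.36 and 0.40 between marks. These describe regions that share libraries, and folds within a list cannot come below 2-fold, which narrows their range.

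**Figure D5:**
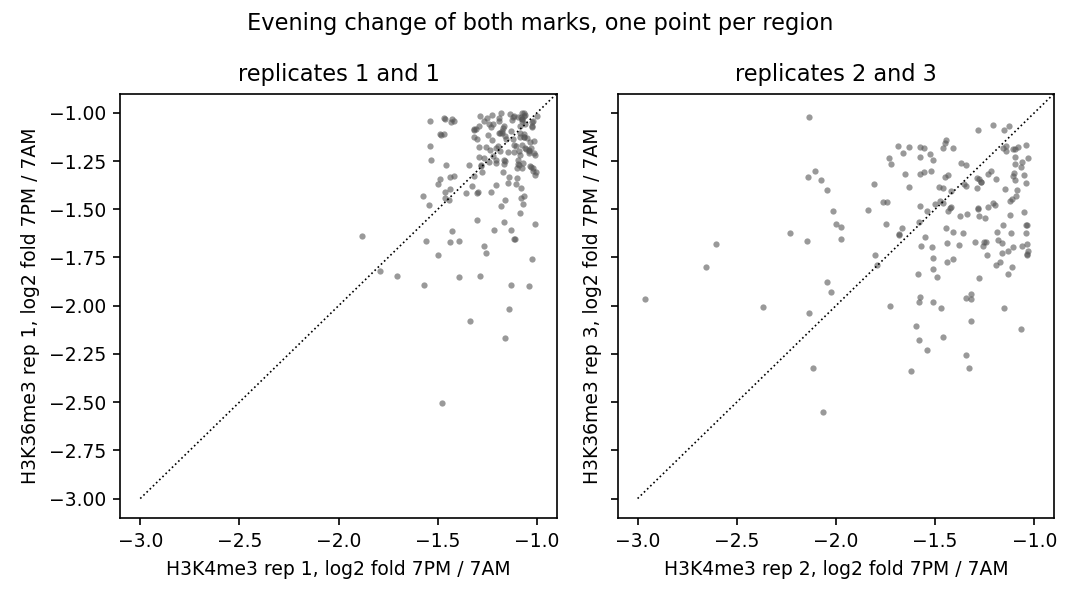
Log2 fold of H3K36me3 against that of H3K4me3, a point per region, for the replicates numbered 1 (left) and for H3K4me3 replicate 2 with H3K36me3 replicate 3 (right); the dotted line marks equal folds. Points below the line, where H3K36me3 fell more, number 96 on the left and 107 on the right.

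The rule kept members from overlapping acetylation islands, and the distance to the nearest one is given as a description. It was not computed for other regions, so whether members lay closer to acetylation than those was not tested. The gap to the nearest H3K9ac or H3K27ac island of any list had a median of 3 kb (quartiles 1.2 and 9.2 kb) and reached 95.8 kb. It was 5 kb or less in 105 members (61.8%, 95% exact binomial interval 54.0 to 69.1, which takes regions as independent) and 1 kb or less in 38. The nearest island was lower at 7PM in 124 members (72.9%), and 72.0% of all 72475 acetylation islands were lower. On Peaxi162Scf00015 from 1404201 to 1406600, and on Peaxi162Scf00359, a lower H3K9ac island began or ended at the next base. Just outside the rule, the H3K4me3 regions on Peaxi162Scf00000 from 6966601 to 6968800 and on Peaxi162Scf00032 from 2669001 to 2670800 were left out for 200 bp of overlap with acetylation. Regions with no acetylation island came nearest to a falling H3K36me3 region, without touching it, on Peaxi162Scf00853 from 118401 to 125200 (200 bp) and on Peaxi162Scf00072 from 219201 to 220400 (400 bp). In 6 members, among them those on Peaxi162Scf00359 and Peaxi162Scf00341 with the longest H3K36me3 extensions, the H3K36me3 region met an acetylation island outside the H3K4me3 region.

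Which lists are avoided sets the number of members. Of the 339 other regions where both methylation marks were lower, 322 overlapped an H3K9ac island and 175 an H3K27ac island. In 291 all of the overlapping acetylation islands were lower at 7PM, and in 37 all were higher. Of all 72475 acetylation islands, 72.0% were lower, a share counted by island and not by region. Leaving out the H3K9ac lists of replicate 1 gave 303 members in place of 170. Asking for a single replicate of a methylation mark also raised the number, to 429 without H3K4me3 replicate 1, 404 without H3K4me3 replicate 2 and 313 without H3K36me3 replicate 1.

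Compared with these 339 regions, the 170 without acetylation had slightly higher median levels and shorter islands, and no test of this could pass 0.05 with so few libraries. The median H3K4me3 level was higher than theirs by 0.067 ± 0.041 on the log2 scale (SD, n = 4 libraries; higher in 4 of 4; two-sided exact sign-flip permutation test p = 0.13, the smallest that 4 libraries allow). For H3K36me3 the difference was 0.064 ± 0.043 (higher in 4 of 4, exact sign-flip permutation p = 0.13). For each mark, the morning and evening libraries of a replicate share their islands, and the rule used their values. The 4 libraries thus come from 2 replicates and are not independent, so nothing is read from these p-values. Both differences reversed with a replicate left out, to −0.0023 for H3K4me3 without H3K4me3 replicate 1 and to −0.071 for H3K36me3 without H3K9ac replicate 1. The median island was shorter than theirs in each list: 1700 against 2200 bp and 1600 against 1800 bp for H3K4me3, and 2000 against 2200 bp and 1900 against 2200 bp for H3K36me3 (2 replicates allow no exact p under 0.5). A longer region has more bases at which it could meet an acetylation island, and the part of this in the difference was not tested. Without H3K4me3 replicate 1 the difference was 0 bp for H3K4me3 and 300 bp in the other direction for H3K36me3.

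Borders also coincided often where acetylation was listed. There, 49.0% and 44.5% of ends coincided in the 2 library pairs, against 52.6% and 42.9% in the members. H3K36me3 was the longer mark in 37.1% and 54.7% of members and in 26.3% and 50.1% of regions with acetylation. The difference was 7.68 ± 4.42 percentage points (SD, n = 2 library pairs, exact sign-flip permutation p = 0.5, the smallest possible). Members were kept only where H3K4me3 met no acetylation island, whatever H3K36me3 met. The test cannot separate the difference from this rule, and nothing is read from it. H3K4me3 was the longer mark in 31.8% and 27.1% of members against 44.2% and 27.7%. H3K36me3 passed H3K4me3 by 1000 bp or more at 6.76% and 10.0% of ends in members, and at 6.05% and 11.4% in regions with acetylation. Long H3K36me3 extensions were thus not particular to the members. H3K4me3 passed H3K36me3 by as much at 2.06% and 2.65% of ends in members, against 4.57% and 2.80%. Median log2 folds were −1.36 for H3K4me3 and −1.35 for H3K36me3 in regions with acetylation, beside −1.30 and −1.40 in the members.

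The 448 falling H3K4me3 regions with neither a falling H3K36me3 region nor acetylation had lower H3K4me3 than the members. The median level in the members was higher by 0.35 ± 0.089 on the log2 scale (SD, n = 4 libraries; higher in 4 of 4; exact sign-flip permutation p = 0.13, the smallest possible). Here too the 7AM and 7PM libraries of a replicate share their islands and were used by the rule, so the 4 libraries are not independent replicates. In H3K4me3 replicate 1 at 7AM the median level was 4.45 CPM per kb in the members and 3.45 in those regions, and in replicate 2 it was 2.98 and 2.54. The difference was 0.62 without H3K4me3 replicate 1, 0.83 without H3K4me3 replicate 2 and 0.21 among regions with at least 50 reads at 7AM, all in the same direction. Their islands had medians of 1200 and 1000 bp, against 1700 and 1600 bp in the members, and the mean difference of 550 bp was 300 bp among regions with at least 50 reads. A longer region has more bases at which it could meet an H3K36me3 region, and the part of this in these differences was not tested. The median log2 fold of the 448 regions was −1.30, the same as in the members.

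The members were scattered over 141 scaffolds, of which 119 held a single member and 20 held 2. Peaxi162Scf00207 held 6, spread over 1222.6 kb from 322401 to 1545000, with mean log2 folds of −1.73 to −1.11 for H3K4me3 and −2.01 to −1.30 for H3K36me3. Peaxi162Scf00037 held 5 over 982.2 kb, with −1.52 to −1.18 and −1.54 to −1.30. The closest pair of members was on Peaxi162Scf00011, 6400 bp apart within 9.6 kb, and the next on Peaxi162Scf00721, 9000 bp apart. The scaffolds and pairs in this paragraph were singled out after their values were seen.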

How the data were processed

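ChIP-seq lists for 4 histone marks in petunia corolla at 7AM and 7PM were used; the 6 input samples have no values in them and were not analysed here. The submitters' processing notes name cutadapt, Bowtie2 and SICER 1.1; settings, duplicate removal and the use of inputs were not given in the sources used here. The deposited lists, 13 columns without names, give for each island the read counts at both times, their CPM as computed by the authors, the authors' fold (a ratio), and a p-value with its FDR. The authors' falling H3K4me3 and H3K36me3 lists hold only islands whose fold reached 2.00 and whose FDR was 0.00425 or lower, each from 1 library per time, so unchanged places are absent. That the earlier value column is 7PM rests on the rule for these regions and on the names of the lists, since columns are unnamed. A lower count at 7PM is relative to the library total. Because borders were set per library pair, counts of a region can cover different lengths in each pair.

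Islands were merged and counts summed with Python 3.11.15 (pandas 2.3.3, NumPy 2.4.6, SciPy 1.17.1), after the merging, borders, gaps, folds and sign-flip test were tested on simulated islands. The members and lists were chosen with earlier results of these data known. Groups are the mark and the time of day in the sample titles, which also number the replicates. The falls were not tested, because the rule used all replicates; only levels, lengths and shares against like regions had exact sign-flip tests over libraries. Regions are named, among the 130 members with at least 50 reads at 7AM in each pair, for the largest weakest fold (5), the longest H3K36me3 (5) or H3K4me3 (3) extension, the longest H3K4me3 (3) and the highest H3K4me3 at 7AM (3), and without that minimum for lying nearest to either side of the rule. Alternatives were single replicates, a fold of 3, 50 reads, an FDR of 1e-05, 50% reciprocal overlap, a 1 kb acetylation margin, lower acetylation alone, shared borders, 1 member per scaffold, a pseudocount of 5, and TMM (edgeR 4.0.16, R 4.3.3) and median-of-ratios scaling. No sequence is shown because no genome was used here.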

Additional observations from a re-analysis of the deposited data

How the results depend on the processing

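No paired analysis was possible because the falls, which the rule used, have no test to which a replicate block could be added; each fold is already taken within 1 replicate pair. Of 232 values recomputed under 19 alternatives, 4 changed direction, each with a list left out: the mean length difference between the marks, both levels and the H3K36me3 length against regions with acetylation. Leaving out a list in turn gave 177 to 429 members (429 and 404 without H3K4me3 replicates 1 and 2, 313 without H3K36me3 replicate 1, 303 without H3K9ac replicate 1), and a fold of at least 3 gave 0. Over the same 8 settings ends on the same border ran from 37.1% to 49.8%, H3K36me3 as the longer mark from 24.0% to 73.2%, H3K4me3 as the longer from 9.79% to 47.5%, the shared part of the span from 0.67 to 0.85, and the mean length of H3K36me3 minus H3K4me3 from −73.7 to 1591 bp (416 bp as reported). That mean was 115 bp with 50% reciprocal overlap. Against regions with acetylation, levels ran from −0.0023 to 0.126 (log2) for H3K4me3 and from −0.071 to 0.18 for H3K36me3, and lengths from −400 to 0 bp and from −500 to 300 bp. Against regions with neither H3K36me3 nor acetylation, the H3K4me3 level ran from 0.31 to 0.83 and the length from 400 to 800 bp; with at least 50 reads they were 0.21 and 300 bp. Members within 5 kb of acetylation ran from 49.5% to 62.7%, and were 49.8% when lower islands alone were avoided. Under TMM and median-of-ratios scaling, which centre regions that mostly fell, the median log2 folds were −0.035 and −0.024 for H3K4me3 and −0.11 and −0.10 for H3K36me3, so the falls are relative to library totals. Depth limits the evening counts, which went down to 3 reads in a library.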
